A study of Mus musculus with 30 samples.

Results

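Neonatal mouse microglia that had grown for 10 days without GM-CSF (Protocol 1B) were compared with microglia grown for 10 days with 0.5 ng/ml GM-CSF (Protocol 1A) for the change in each transcript after 4 h of HMGB1 treatment. The quantity reported for each gene is the HMGB1 response in 1B minus the HMGB1 response in 1A, here called the interaction, on the log2 scale. It rests on 12 of the 30 bulk RNA libraries of the series, 3 in each of the groups 1B HMGB1, 1B Control, 1A HMGB1 and 1A Control. All 12 came from mixed glial cultures of C57BL/6 pups of postnatal days 0 to 3, with cells of 5 pups pooled for a preparation and the replicates taken from separate litters; whether the protocols shared litters is not given. Microglia were shaken off the cultures and kept overnight in a serum-free medium before HMGB1 was added, and the methods name GM-CSF for the mixed culture stage, so the protocols differ in what the cells had grown in. Control libraries received no HMGB1. The methods do not give the HMGB1 concentration for these cultures.

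GM-CSF (encoded by Csf2) signals through a receptor of the alpha chain Csf2ra and the beta chain Csf2rb, which activates JAK2 and the transcription factor STAT5 and supports the survival and proliferation of myeloid cells. HMGB1 is a nuclear chromatin protein that stressed or injured cells release, and outside the cell it is sensed by receptors such as TLR4, TLR2 and RAGE. Toll-like receptors act through MYD88 to NF-kB, which induces inflammatory cytokines, and through TRIF to type I interferon, whose receptor induces the interferon-stimulated genes.

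The 12 libraries held between 15403182 and 26863639 counts, and mitochondrial transcripts took between 1.25% and 1.70% of them. Csf1r, the M-CSF receptor of the microglial lineage, averaged 1021 CPM (counts scaled to the size of the library) in 1B HMGB1, 822 CPM in 1B Control, 1386 CPM in 1A HMGB1 and 1148 CPM in 1A Control. Tmem119, a marker of resident microglia, averaged 1.03 CPM in 1B HMGB1, 2.01 CPM in 1B Control, 0.449 CPM in 1A HMGB1 and 1.29 CPM in 1A Control. Of 8 monocyte and dendritic cell markers, 5 had enough counts to be tested. In Control libraries 4 were lower and 0 higher in 1B, and in HMGB1 libraries 3 were lower and 0 higher. All 8 summed to 4.28 to 6.2 CPM in 1B HMGB1 and 2.40 to 3.53 CPM in 1B Control, against 194 to 280 CPM in 1A HMGB1 and 130 to 185 CPM in 1A Control. Ccr2 averaged 0.282 CPM in 1B HMGB1 and 0.458 CPM in 1B Control, against 3.69 CPM in 1A HMGB1 and 34.6 CPM in 1A Control. Xcr1 and Zbtb46 averaged 2.94 and 1.56 CPM in 1B HMGB1, against 1.56 and 0.911 CPM in 1A HMGB1. Ly6c2 had 0 counts in the 6 1B libraries, but 107, 120 and 178 CPM in 1A HMGB1 and 18.5, 37.3 and 59.5 CPM in 1A Control, and Chil3 averaged 0 CPM in 1B HMGB1 and 0.0727 CPM in 1B Control, against 89.7 CPM in 1A HMGB1 and 74.8 CPM in 1A Control. Fibroblast and mural markers, 8 tested of 11, summed to 41.4 to 83.4 CPM in 1B HMGB1 and 30.7 to 97.5 CPM in 1B Control, against 6.16 to 20.1 CPM in 1A HMGB1 and 4.65 to 6.99 CPM in 1A Control. Astrocyte markers, 9 tested of 10, went both ways. In Control libraries 6 were higher and 2 lower in 1B, and in HMGB1 libraries 5 were higher and 3 lower. Gfap averaged 14 CPM in 1B HMGB1 and 7.09 CPM in 1B Control, against 0.0416 CPM in 1A HMGB1 and 0 in 1A Control, whereas Aldoc averaged 10.1 CPM in 1B HMGB1 and 11 CPM in 1B Control, against 46.4 CPM in 1A HMGB1 and 56.2 CPM in 1A Control. The astrocyte list summed to 53.3 to 103 CPM in 1B HMGB1 and 32.9 to 62.2 CPM in 1B Control, against 94.7 to 103 CPM in 1A HMGB1 and 85.9 to 94.7 CPM in 1A Control. These markers differed between the protocols, and their part in the results that follow was not tested. Over all genes tested, 18% were higher and 17.2% lower in 1B Control than in 1A Control. Between the HMGB1 groups these shares were 15.8% higher and 14.7% lower in 1B. In bulk RNA, a change in the number of cells of a type and a change in RNA per cell cannot be told apart.

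Most genes that responded to HMGB1 moved in the same direction in both protocols. Of 14634 genes tested, 4200 rose (28.7%) and 4585 fell (31.3%) in 1B, and 4104 rose (28%) and 4329 fell (29.6%) in 1A, at an adjusted p below 0.05 by the quasi-likelihood test of edgeR. Across the 10130 genes called in at least 1 protocol, both responses had the same sign for 94.0%, with a Pearson r of 0.87 and a Spearman rho of 0.91 across genes, which are not independent replicates. The responses of 1B and 1A share no library. Log2 responses were spread somewhat more widely in 1B, with an SD 1.16 times that of 1A over those genes.

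The response was called higher in 1B for 781 genes (5.34% of those tested) and lower for 627 (4.28%). Most of the 781 were genes that HMGB1 raised in both protocols, 533 in number, and raised further in 1B; 114 rose in 1B with no call in 1A, 70 fell in 1A with no call in 1B, 46 fell less in 1B, and 18 rose in 1B and fell in 1A. The 627 comprised 249 that fell in both and further in 1B, 123 that fell in 1B with no call in 1A, 113 that rose in 1A with no call in 1B, 101 that rose less in 1B, and 41 that fell in 1B and rose in 1A. Over the 781 genes the median response was 1.46 in 1B and 0.79 in 1A. Their levels differed between protocols at a median of 0.13 in HMGB1 libraries and -0.57 in Control libraries (log2, 1B minus 1A), so that the typical gene of this kind began lower in 1B Control. Over the 627 genes the median response was -0.62 in 1B and 0.0005 in 1A, and the level differences were -0.41 in HMGB1 and 0.23 in Control libraries. The median interaction over all genes tested was 0.01. The shares of 5.34% higher and 4.28% lower serve as background for the interaction counts of the gene lists below.

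Responses were also compared library by library, taking the lowest HMGB1 library against the highest Control library and the reverse. By this measure 1B lay wholly above 1A for 1091 genes (7.46%), 728 of which were among the 781, and 1A wholly above 1B for 995 genes (6.8%), with 599 of the 627 among them. As background for the level comparisons given below, 2313 genes (15.8%) were higher and 2157 (14.7%) lower in 1B HMGB1 than in 1A HMGB1, and 2633 (18%) were higher and 2511 (17.2%) lower in 1B Control than in 1A Control. Leaving out 1 library at a time gave 504 to 844 genes with a higher response in 1B and 441 to 817 with a lower one, and the higher count fell by more than 1.5 times without 1A HMGB1 replicate 1 (519) or replicate 3 (504).

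**Figure D1:**
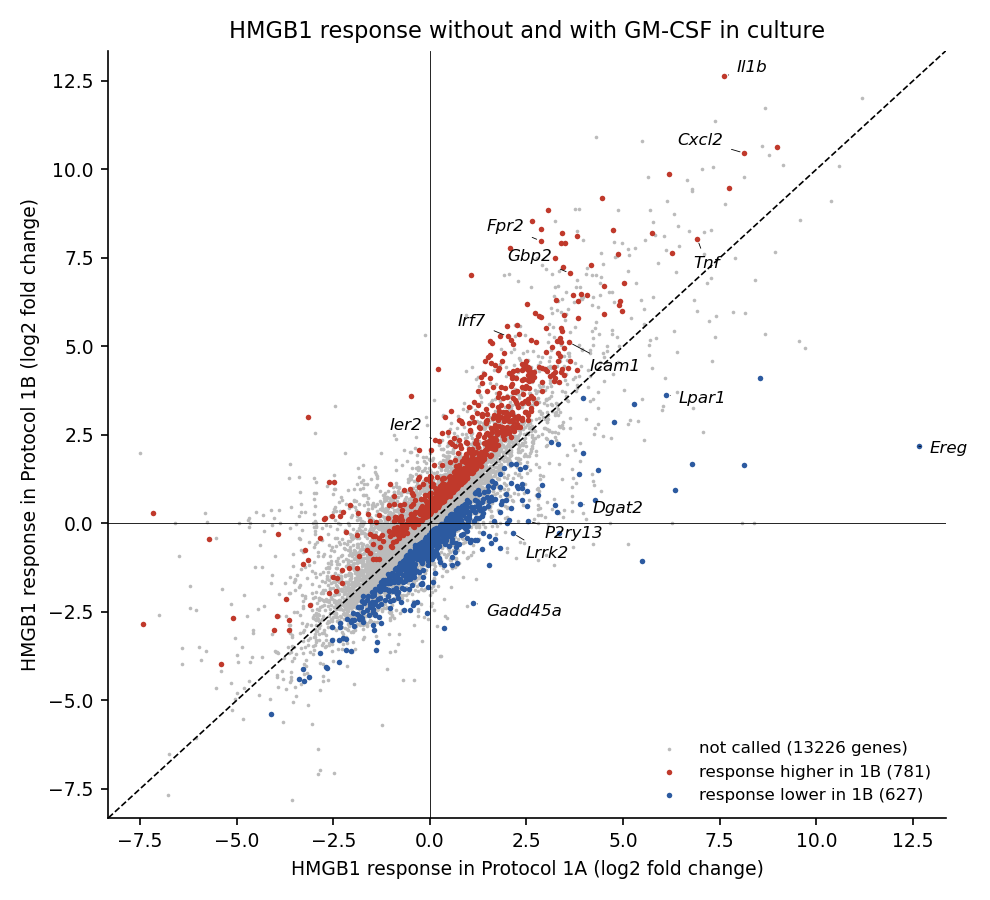
HMGB1 response in Protocol 1B (vertical axis) against Protocol 1A (horizontal axis), as log2 fold changes of HMGB1 over Control for 14634 genes, 3 libraries per group. Genes with a called interaction are coloured, 781 with a response higher in 1B and 627 with a response lower in 1B, and the dashed line marks equal responses.

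The cytokine transcripts Tnf and Il1b responded more strongly in cells grown without GM-CSF. Tnf encodes TNF-alpha, a principal NF-kB-driven cytokine (minus strand, chr17:35199381-35202007). Its level was 4586, 6199 and 5421 CPM in 1B HMGB1 and 17.1, 22.9 and 22 CPM in 1B Control. This compared with 2956, 3098 and 2794 CPM in 1A HMGB1 and 20.1, 23.8 and 29.2 CPM in 1A Control. The Control libraries overlapped, while every 1B HMGB1 library lay above every 1A HMGB1 library. The responses were 8.03 in 1B and 6.92 in 1A (interaction 1.11, SE 0.21, adjusted p = 0.00641, edgeR quasi-likelihood test with Benjamini-Hochberg adjustment, as for all adjusted p that follow).

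Il1b, which encodes the precursor of IL-1 beta (chr2:129364570-129371139), had one of the 10 largest positive interactions under the rule given in the methods. HMGB1 libraries held 2148, 3165 and 3049.7 CPM in 1B and 1852, 2089 and 1692 CPM in 1A, with no overlap. Control libraries held 0.196, 0.741 and 0.319 CPM in 1B and 11.8, 9.8 and 6.84 CPM in 1A. The larger part of the difference thus lay in the untreated cells: over the 3 libraries, 1B Control had 27 Il1b counts in all, against 657 in 1A Control. The responses were 12.63 in 1B and 7.62 in 1A (interaction 5.01, SE 0.47, adjusted p = 0.00021). Ifnb1, which encodes interferon beta, was rare in each group, with 1.83, 3.42 and 1.74 CPM in 1B HMGB1 and 0 counts in 1B Control, against 1.0, 3.36 and 4.08 CPM in 1A HMGB1 and 0, 0 and 0.148 CPM in 1A Control. Its interaction had an SE of 2.01 and an adjusted p of 0.484, so a difference in Ifnb1 was not detectable at this depth.

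Of 27 inflammatory cytokines tested, the interaction was higher in 1B for 6 and lower for 1, with a median of 0.98. Il18, an inflammasome substrate like IL-1 beta, averaged 46.7 ± 11.1 CPM in 1B HMGB1, 4.54 ± 1.23 in 1B Control, 40.9 ± 6.16 in 1A HMGB1 and 11.4 ± 0.172 in 1A Control (interaction 1.51, SE 0.27, adjusted p = 0.00389). Il1a averaged 885 CPM in 1B HMGB1 and 776 CPM in 1A HMGB1 and was not called (interaction 1.15, adjusted p = 0.0555), although it was called in 7 of the 19 other settings, DESeq2 among them. The exception in the other direction was Ereg, the EGF receptor ligand epiregulin. It had 0.458, 0.517 and 0.0870 CPM in 1B HMGB1 and 0.0978, 0.0436 and 0.0532 CPM in 1B Control. In 1A HMGB1 it reached 45.3, 43 and 35.3 CPM, against 0 counts in the 3 libraries of 1A Control, and was at least 933-fold higher (set against a floor of 3 counts over the group). Every 1A HMGB1 library exceeded every 1B HMGB1 library more than the spread within either group.

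**Figure D2:**
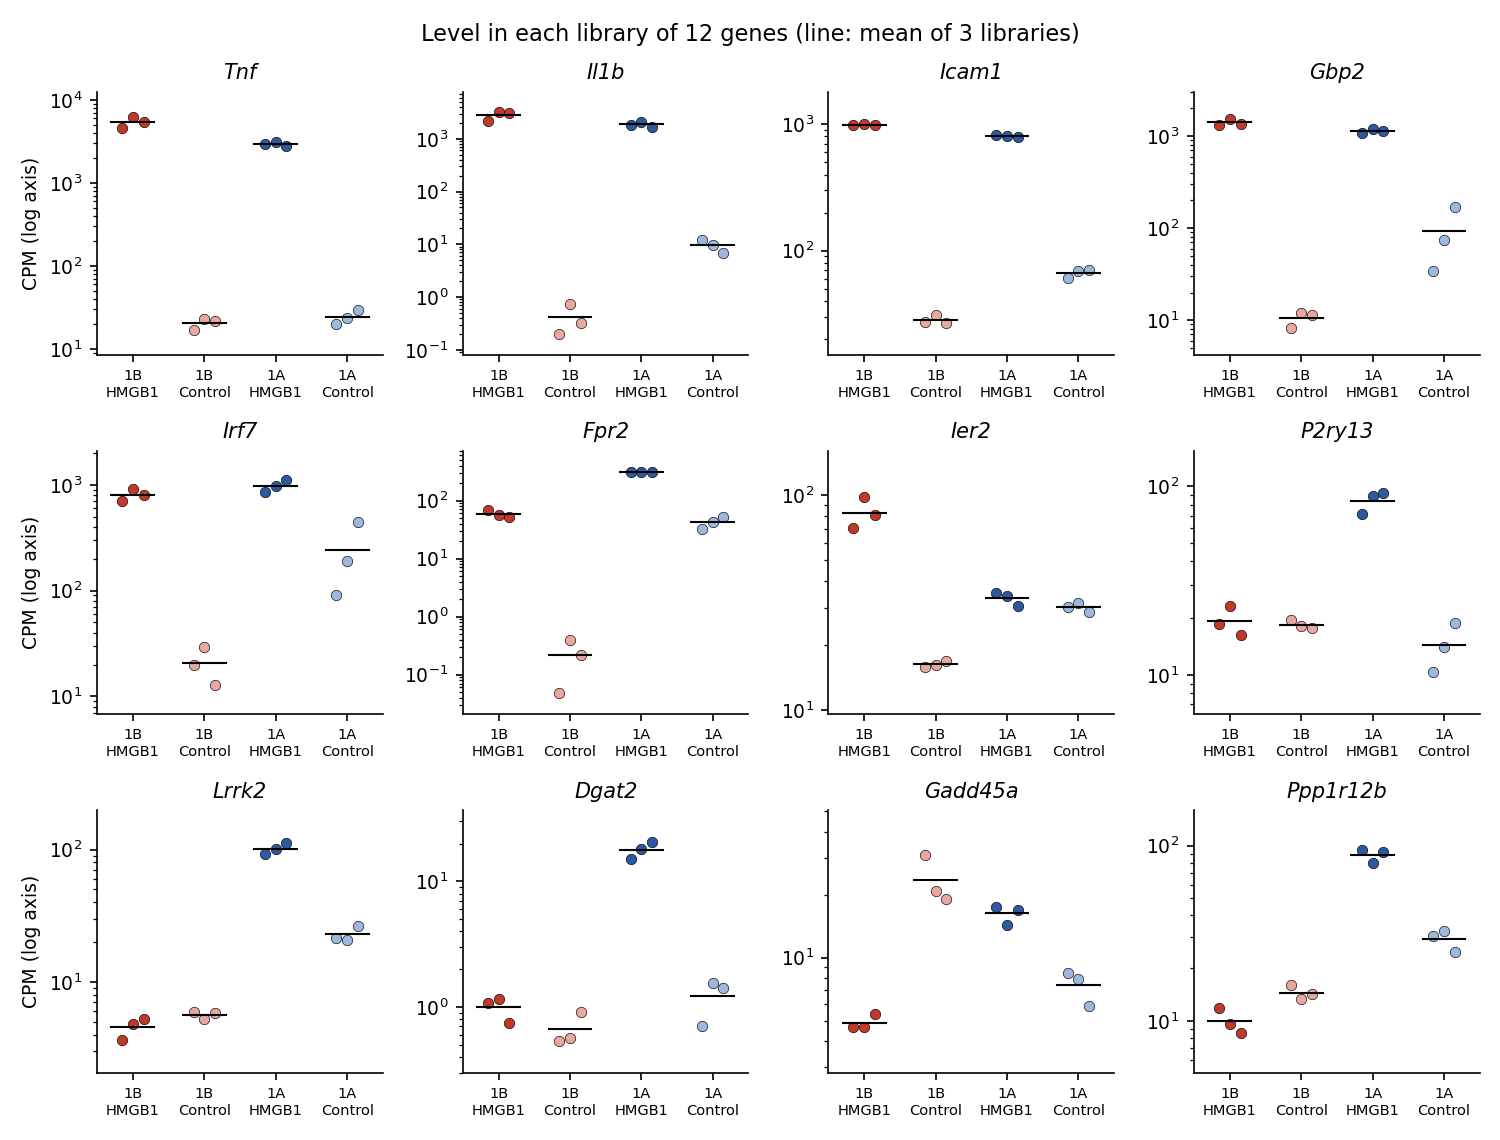
Level of 12 genes in each library, in CPM on a log axis, with the mean of 3 libraries as a line; groups run from 1B HMGB1 to 1A Control. For Tnf the 1B HMGB1 libraries stood above the 1A HMGB1 libraries, for Il1b, Icam1, Gbp2, Irf7 and Fpr2 the 1B Control libraries stood below the 1A Control libraries, and for P2ry13, Lrrk2 and Dgat2 the HMGB1 response was called in 1A and not in 1B.

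Interferon-stimulated genes were lower in untreated cells grown without GM-CSF and many of them rose by more with HMGB1. All 40 members tested rose in both protocols, with a median response of 4.64 in 1B and 2.36 in 1A, and the interaction was higher in 1B for 24, lower for 0 and not called for 16 (median 2.19). In HMGB1 libraries 1 member was higher and 1 lower in 1B. In Control libraries all 40 were lower in 1B (median -2.17). The summed level of the list was 37377, 52344 and 43388 CPM in 1B HMGB1 and 1128, 1254 and 898 CPM in 1B Control. Protocol 1A gave 31450, 36994 and 38011 CPM in 1A HMGB1 and 2281, 3645 and 6404 CPM in 1A Control. Relative to their mean, the 1A Control libraries differed from each other more than those of any other group, and each of them was above each 1B Control library. The 1A Control library highest for this sum was also the highest for Ly6c2 (59.5 CPM), and the lowest also the lowest (18.5 CPM). Ccr2 ran in the same order, at 28.2, 31.5 and 44.2 CPM in the 1A Control libraries in replicate order. Chil3 did not, at 85.4, 59.95 and 78.9 CPM, and was highest in the library lowest for the interferon sum. The part of monocyte markers in this spread was not tested.

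Irf7, the transcription factor that amplifies interferon production, showed this pattern, with 703, 907 and 795 CPM in 1B HMGB1 and 19.7, 29 and 12.8 CPM in 1B Control. This compared with 849.8, 975 and 1114 CPM in 1A HMGB1 and 90.4, 192 and 444 CPM in 1A Control (interaction 3.26, SE 0.76, adjusted p = 0.0316). The HMGB1 groups overlapped and the Control groups did not. Oas3, an enzyme that makes the activator of RNase L, averaged 168 ± 29.1 CPM in 1B HMGB1, 6.35 ± 2.89 in 1B Control, 469 ± 89.1 in 1A HMGB1 and 165 ± 113 in 1A Control (interaction 3.19, SE 0.75, adjusted p = 0.0338). Ifih1, the cytosolic sensor of double-stranded RNA also called MDA5, averaged 1071 ± 153 CPM in 1B HMGB1, 24.7 ± 2.27 in 1B Control, 691 ± 45.7 in 1A HMGB1 and 64.9 ± 29.4 in 1A Control (interaction 2.02, SE 0.40, adjusted p = 0.0142). Parp14, an ADP-ribosyltransferase, had an interaction of 1.82 (adjusted p = 0.0129) and Ifi35 one of 1.31 (adjusted p = 0.0149). The most abundant member, the antiviral enzyme viperin (Rsad2), averaged 12289.6 CPM in 1B HMGB1 and 7406 CPM in 1A HMGB1 and was not called (interaction 2.34, adjusted p = 0.0988), but was called in 3 of the 19 other settings. Irf1, a transcription factor that NF-kB induces, was the member with the smallest adjusted p, at 667, 686 and 662 CPM in 1B HMGB1 and 28, 30.0 and 25.3 CPM in 1B Control. Protocol 1A gave 541, 488 and 507 CPM in 1A HMGB1 and 46.2, 46.8 and 61.7 CPM in 1A Control (interaction 1.28, SE 0.13, adjusted p = 1.91e-05).

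The guanylate-binding proteins and immunity-related GTPases, which attack membranes around intracellular pathogens, had a still larger median interaction. All 14 rose in 1B and 13 in 1A, and the interaction was higher in 1B for 4 and lower for 0, with a median of 2.50. Gbp2 had 1334, 1548 and 1360.0 CPM in 1B HMGB1 and 8.22, 12 and 11.4 CPM in 1B Control. This compared with 1082, 1196 and 1137 CPM in 1A HMGB1 and 34.2, 74 and 169 CPM in 1A Control (interaction 3.44, SE 0.70, adjusted p = 0.018). Gbp3 (interaction 3.15), Gbp7 (2.58) and Igtp (1.87) were the others called. In all, 12 of the 14 were lower in 1B Control than in 1A Control and 0 were higher.

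The number of interferon genes called depended on single libraries. Without 1A Control replicate 1, the lowest of its group, 37 of the 40 were called, and without replicate 3, the highest, 27, with a median interaction of 1.55. Leaving out any 1 of the other 10 libraries gave 5 to 16. The median stayed between 1.55 and 2.51 in all 12 of these fits, and none called a member lower in 1B. With all libraries, 38 were called by DESeq2, 37 in a fit of all 30 libraries of the series and 15 without the filter on low counts. The guanylate-binding list varied from 1 to 10 of 14 with 1 library left out. Of the genes named here, Irf7 lost its call in 10 of the 19 other settings, Oas3 in 9, Gbp2 in 4, Gbp3 in 11 and Igtp in 13.

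**Figure D3:**
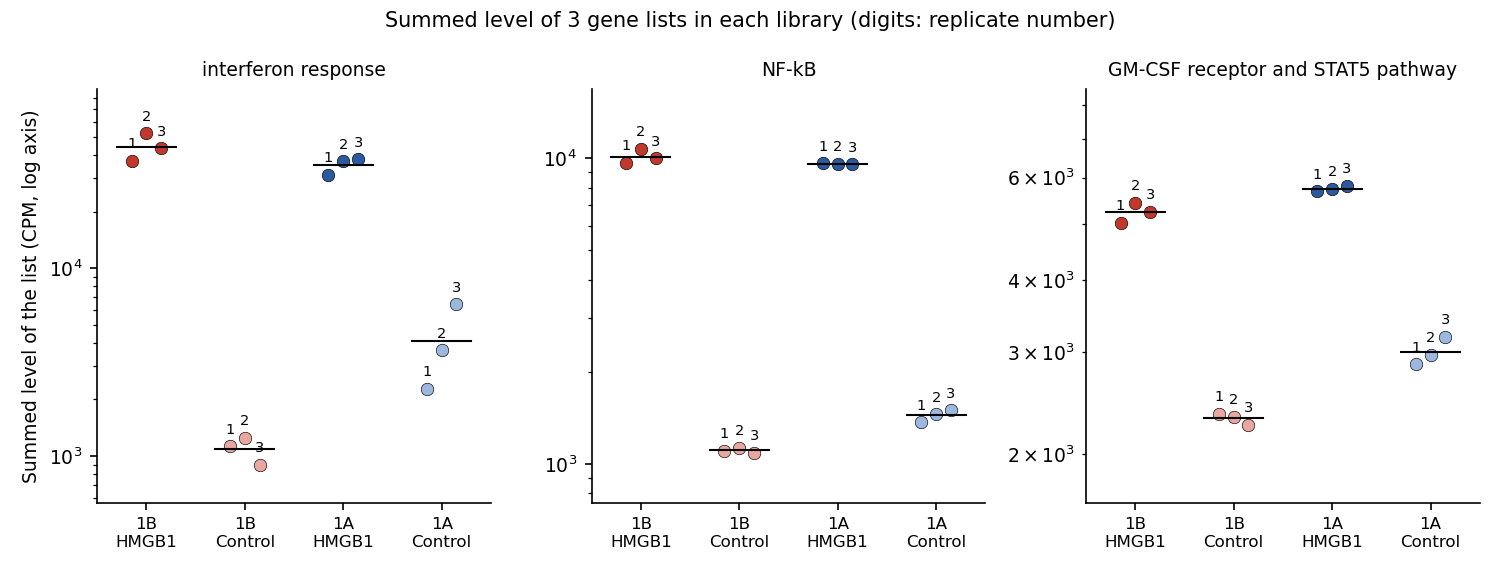
Summed level of 3 gene lists in each library, in CPM on a log axis, with replicate numbers beside the points and the group mean as a line. In the interferon list the 1A Control libraries spread from 2281 to 6404 CPM, above the 1B Control libraries at 898 to 1254 CPM, while the HMGB1 groups overlap.

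The promoters of Gbp2, Oas3 and Ifih1 are shown because these genes carry the interferon pattern and their windows hold the motif bound by the interferon-activated factors; both the genes and the motif were picked with the values known. Each runs from 250 bases before to 50 bases after the transcription start (RefSeq, GRCm38.p6), 5′ to 3′ on the strand of the gene, and capitals mark matches to the core of the interferon-stimulated response element, GAAANNGAA, on either strand, with overlapping matches run together. Gbp2 lies at chr3:142620413-142620712, plus strand, Oas3 at chr5:120777610-120777909, minus strand, and Ifih1 at chr2:62646206-62646505, minus strand.
Gbp2: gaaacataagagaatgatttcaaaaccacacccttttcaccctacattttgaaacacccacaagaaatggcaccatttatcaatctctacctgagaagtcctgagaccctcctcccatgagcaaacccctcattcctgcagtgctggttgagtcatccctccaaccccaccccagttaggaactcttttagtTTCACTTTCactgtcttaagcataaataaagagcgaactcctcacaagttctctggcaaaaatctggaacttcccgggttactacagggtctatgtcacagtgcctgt
Oas3: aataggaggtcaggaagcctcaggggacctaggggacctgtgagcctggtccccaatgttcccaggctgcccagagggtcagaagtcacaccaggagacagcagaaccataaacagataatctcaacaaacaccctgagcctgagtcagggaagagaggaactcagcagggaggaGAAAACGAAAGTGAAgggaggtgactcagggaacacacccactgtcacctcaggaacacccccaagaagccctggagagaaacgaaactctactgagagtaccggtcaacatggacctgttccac
Ifih1: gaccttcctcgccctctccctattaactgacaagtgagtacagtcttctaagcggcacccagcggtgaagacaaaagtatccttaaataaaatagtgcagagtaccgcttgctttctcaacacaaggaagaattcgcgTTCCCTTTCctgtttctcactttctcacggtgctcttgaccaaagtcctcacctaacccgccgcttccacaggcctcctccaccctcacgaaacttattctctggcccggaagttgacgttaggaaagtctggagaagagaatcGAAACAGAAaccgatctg

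The same letters were searched in the window of every tested gene with a RefSeq promoter entry, 10183 of 14634, where 9% held the interferon motif. It was present in 15% of the 601 matched genes with a response higher in 1B, in 5.79% of the 484 matched genes with a lower one and in 56.7% of the 30 matched members of the interferon list. The STAT motif TTCNNNGAA was in 11% of the higher, 6.82% of the lower and 8.19% of all matched genes, and the NF-kB motif in 14.6%, 13.2% and 12.3%. These shares describe letters in a window and do not identify bound sites.

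NF-kB subunits, inhibitors and targets rose throughout, and many of them rose further in 1B. All 30 rose in both protocols. The interaction was higher in 1B for 17 and lower for 1 (Tnfaip3, -0.41), with a median of 0.57, and this count stayed between 14 and 17 with any 1 library left out. Control levels were lower in 1B for 21 of 30 and higher for 3, and HMGB1 levels were higher for 11 and lower for 5. Icam1, the adhesion molecule that leukocyte integrins bind, had 991, 1001 and 977 CPM in 1B HMGB1 and 27.4, 31 and 26.9 CPM in 1B Control. Protocol 1A gave 826, 806 and 794 CPM in 1A HMGB1 and 60.2, 69.5 and 70.8 CPM in 1A Control (interaction 1.52, SE 0.10, adjusted p = 8.53e-08). It was higher in 1B with HMGB1 and lower without, and neither pair of groups overlapped.

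Nfkbia encodes I-kappa-B-alpha, the inhibitor that NF-kB itself induces. With HMGB1 it stood at 617, 681 and 650.1 CPM in 1B and 644, 658 and 638 CPM in 1A, groups that overlap, and in Controls at 24.3, 28.4 and 28.8 CPM in 1B and 49.4, 52.8 and 56.2 CPM in 1A (interaction 0.97, SE 0.10, adjusted p = 1.18e-05). Nfkb2, the p100 subunit of the alternative pathway, averaged 585 ± 8.18 CPM in 1B HMGB1, 55.5 ± 1.1 in 1B Control, 424 ± 30.6 in 1A HMGB1 and 81.5 ± 4.44 in 1A Control (interaction 1.02, SE 0.09, adjusted p = 2.29e-06). Birc3, an inhibitor of apoptosis that ubiquitinates RIP kinases, was lower in 1B in both conditions yet rose by more (interaction 1.02, SE 0.10, adjusted p = 6.56e-06). Tnip1, which restrains the pathway together with A20, had an interaction of -0.16 (adjusted p = 0.404) and was not called.

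Chemokines followed, with an interaction higher in 1B for 5 of 21 and lower for 0 (median 1.33). Cxcl2, a neutrophil attractant, had 1989.6, 2541 and 2503 CPM in 1B HMGB1 and 0.636, 2.09 and 2.24 CPM in 1B Control. This compared with 1508, 1417 and 1352 CPM in 1A HMGB1 and 4.28, 5.33 and 5.71 CPM in 1A Control (interaction 2.33, SE 0.37, adjusted p = 0.00385). Ccl9, a macrophage attractant, averaged 2387 ± 349 CPM in 1B HMGB1, 412 ± 45.2 in 1B Control, 1601 ± 115 in 1A HMGB1 and 552 ± 42.9 in 1A Control (interaction 1.0, SE 0.15, adjusted p = 0.000672), and Cxcl16, a ligand of CXCR6, had an interaction of 0.96 (adjusted p = 0.00457). For Ccl22, a ligand of CCR4 that GM-CSF is known to raise, the larger response in 1B started from a lower level and ended lower: 12.1, 18.3 and 22.4 CPM in 1B HMGB1 and 1.27, 0.610 and 1.17 CPM in 1B Control. Protocol 1A gave 33.8, 36.1 and 32.9 CPM in 1A HMGB1 and 14.6, 13.5 and 13.2 CPM in 1A Control (interaction 2.83, SE 0.32, adjusted p = 5.78e-05). The abundant Ccl3 averaged 6206 CPM in 1B HMGB1 and 3791 CPM in 1A HMGB1, with an interaction of 0.19 (SE 0.23, adjusted p = 0.713).

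The promoters of Cxcl2 and Nfkbia are shown as members of the NF-kB-driven lists whose windows hold the NF-kB motif, in capitals; they run as above, also from RefSeq (GRCm38.p6), and were also picked with the values known. Cxcl2 lies at chr5:90903649-90903948, plus strand, and Nfkbia at chr12:55492598-55492897, minus strand.
Cxcl2: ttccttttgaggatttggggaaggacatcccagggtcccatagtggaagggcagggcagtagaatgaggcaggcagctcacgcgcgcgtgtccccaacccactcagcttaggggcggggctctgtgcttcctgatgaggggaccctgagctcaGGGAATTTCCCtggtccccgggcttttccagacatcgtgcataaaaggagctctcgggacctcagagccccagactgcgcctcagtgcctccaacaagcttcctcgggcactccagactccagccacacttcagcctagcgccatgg
Nfkbia: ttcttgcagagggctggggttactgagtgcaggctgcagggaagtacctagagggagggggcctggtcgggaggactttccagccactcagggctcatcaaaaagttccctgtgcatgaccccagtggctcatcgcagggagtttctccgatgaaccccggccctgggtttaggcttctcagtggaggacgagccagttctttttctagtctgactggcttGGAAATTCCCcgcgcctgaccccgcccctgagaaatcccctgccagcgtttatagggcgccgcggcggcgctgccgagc

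Many transcripts of the immediate-early response stood higher in 1B with HMGB1. Of 28 tested, 16 were higher and 3 lower in 1B HMGB1 than in 1A HMGB1, and the interaction was higher in 1B for 12 and lower for 1 (median 0.67). Ier2, a nuclear factor induced within minutes by growth factors, had 70.8, 97.9 and 80.6 CPM in 1B HMGB1 and 15.8, 16.2 and 16.9 CPM in 1B Control. This compared with 35, 34 and 30.5 CPM in 1A HMGB1 and 30.3, 31.5 and 28.7 CPM in 1A Control (interaction 2.21, SE 0.14, adjusted p = 8.53e-08). At 4 h it was thus raised in 1B, with a response of 2.35, and not called in 1A, at 0.14. Btg2, an antiproliferative gene, had responses of 2.3 in 1B and 0.52 in 1A (interaction 1.78, SE 0.19, adjusted p = 5.42e-05), and Junb, an AP-1 subunit, 2.79 in 1B and 1.68 in 1A (interaction 1.1, SE 0.11, adjusted p = 1.08e-05). Myc fell in both, by much less in 1B, and averaged 24.3 ± 3.07 CPM in 1B HMGB1, 29.7 ± 1.49 in 1B Control, 7.09 ± 1.45 in 1A HMGB1 and 20.7 ± 1.53 in 1A Control (interaction 1.24, SE 0.18, adjusted p = 0.000239).

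Several of the largest interactions with a higher response in 1B belonged to genes with little expression in 1B Control. Fpr2 and Fpr1 encode the formyl peptide receptors of phagocytes and lie on chromosome 17. Fpr2 had 68, 56.2 and 51.6 CPM in 1B HMGB1 and 0.0489, 0.392 and 0.213 CPM in 1B Control. Protocol 1A gave 305, 307 and 307 CPM in 1A HMGB1 and 32.7, 42.3 and 51.4 CPM in 1A Control (interaction 5.12, SE 0.43, adjusted p = 4.78e-05). Fpr1 had 141, 92.6 and 87.4 CPM in 1B HMGB1 and 0.147, 0.872 and 0.213 CPM in 1B Control. This compared with 848, 799 and 771 CPM in 1A HMGB1 and 68.7, 77 and 67.6 CPM in 1A Control (interaction 4.42, SE 0.48, adjusted p = 0.00049). For both receptors every 1B library was below every 1A library of the same treatment, so the larger fold response in 1B went with a smaller gain in CPM. Of the 533 genes that rose in both protocols with a higher response in 1B, 86 had a smaller gain in CPM in 1B.

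C3, the central complement component, was of the same kind and averaged 424 ± 61.6 CPM in 1B HMGB1, 17.4 ± 9.96 in 1B Control, 1181 ± 203 in 1A HMGB1 and 443 ± 178 in 1A Control (interaction 3.18, SE 0.57, adjusted p = 0.0103). So was Pilrb2, a gene of the paired immunoglobulin-like receptor family with near-identical neighbours, among which reads may be divided (interaction 3.49, SE 0.53, adjusted p = 0.00138). Mmp9, gelatinase B, differed from these in that HMGB1 levels were slightly higher in 1B: it had 103, 93.7 and 105 CPM in 1B HMGB1 and 2.79, 4.14 and 4.15 CPM in 1B Control. Protocol 1A gave 89.3, 81.5 and 65.6 CPM in 1A HMGB1 and 27, 25.9 and 27.3 CPM in 1A Control (interaction 3.2, SE 0.18, adjusted p = 6.67e-08). Mmp14, a membrane-bound collagenase, had an interaction of 1.57 (adjusted p = 0.00218). These were the 2 of 15 metalloproteinases and inhibitors called, both higher in 1B (4 without 1B HMGB1 replicate 1).

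Other genes responded more strongly in cells that had grown with GM-CSF. Lrrk2, a kinase linked to Parkinson's disease that myeloid cells express, had 3.67, 4.78 and 5.27 CPM in 1B HMGB1 and 5.97, 5.23 and 5.8 CPM in 1B Control. This compared with 92.6, 101 and 112 CPM in 1A HMGB1 and 21.4, 20.9 and 26.5 CPM in 1A Control (interaction -2.43, SE 0.18, adjusted p = 4.16e-07). HMGB1 raised it by 2.15 in 1A, and its response in 1B, -0.28, was not called. P2ry13, a purinergic receptor for ADP, had 18.7, 23.2 and 16.4 CPM in 1B HMGB1 and 19.6, 18.2 and 17.8 CPM in 1B Control. Protocol 1A gave 71.4, 88.8 and 92.1 CPM in 1A HMGB1 and 10.4, 14 and 18.9 CPM in 1A Control (interaction -2.48, SE 0.27, adjusted p = 0.000205). Here the Control groups overlapped, and the 1A HMGB1 libraries stood above those of every other group.

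Dgat2, which makes triglycerides for lipid droplets, had 1.07, 1.16 and 0.740 CPM in 1B HMGB1 and 0.538, 0.567 and 0.905 CPM in 1B Control. This compared with 15.1, 18.1 and 20.6 CPM in 1A HMGB1 and 0.701, 1.55 and 1.43 CPM in 1A Control (interaction -3.34, SE 0.45, adjusted p = 0.000154). Adora2b, an adenosine receptor, averaged 2.4 ± 0.754 CPM in 1B HMGB1, 1.42 ± 0.266 in 1B Control, 29.2 ± 0.875 in 1A HMGB1 and 4.16 ± 0.796 in 1A Control (interaction -2.0, SE 0.30, adjusted p = 0.000372). The remaining genes among the 10 largest of this direction were Lpar1, a lysophosphatidic acid receptor (interaction -2.49, adjusted p = 0.0292), Trem1, a receptor that amplifies Toll-like receptor signals (-2.45, 0.0307), Hs3st3b1, a heparan sulphate sulphotransferase (-2.06, 0.00124), Adgb, androglobin (-2.03, 0.0024), and Gadd45a and Ppp1r12b, described next. Hs3st3b1 fell in 1B (-0.72) and rose in 1A (1.34). Lpar1 and Trem1 lost their calls when certain single libraries were left out, Lpar1 in 6 of 12 cases and Trem1 in 6 of 12. Trem1 rose in both protocols to different levels, 0.382, 0.323 and 0.957 CPM in 1B HMGB1 and 11.9, 14.1 and 22.2 CPM in 1A HMGB1.

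Responses were called in opposite directions for 18 genes that rose in 1B and fell in 1A and for 41 that fell in 1B and rose in 1A. Gadd45a, a stress-induced gene of growth arrest and DNA repair, had 4.66, 4.65 and 5.35 CPM in 1B HMGB1 and 30.8, 20.7 and 19.1 CPM in 1B Control. Protocol 1A gave 17.5, 14.3 and 16.9 CPM in 1A HMGB1 and 8.41, 7.89 and 5.9 CPM in 1A Control (interaction -3.38, SE 0.26, adjusted p = 8.41e-07). Its groups did not overlap in either protocol, and HMGB1 lowered it in 1B and raised it in 1A. Ppp1r12b, a regulatory subunit of myosin phosphatase, had 11.9, 9.62 and 8.57 CPM in 1B HMGB1 and 16.1, 13.3 and 14.2 CPM in 1B Control. This compared with 94.5, 79.6 and 92.5 CPM in 1A HMGB1 and 30.6, 32.8 and 24.9 CPM in 1A Control (interaction -2.14, SE 0.18, adjusted p = 2.34e-06).

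Others that fell in 1B and rose in 1A were Tle3, a transcriptional corepressor, at -0.64 in 1B and 0.49 in 1A, Fam126b at -0.46 and 1.07, Cyb561a3, a lysosomal cytochrome, at -0.52 and 0.56, Ppp1r9a, neurabin, at -0.8 and 0.65, and the zinc-finger homeobox gene Zhx1 at -0.36 and 0.42. Tifab, a negative regulator of TRAF6 signalling, went the other way. It averaged 29.8 ± 3.75 CPM in 1B HMGB1, 25.1 ± 1.96 in 1B Control, 32 ± 1.09 in 1A HMGB1 and 97.5 ± 6.2 in 1A Control, so that the HMGB1 groups overlapped while the Control groups did not (interaction 1.86, SE 0.13, adjusted p = 1.22e-07); its rise in 1B, 0.26, was small, with 1 Control library above the lowest HMGB1 library. Klhdc4 had responses of 0.54 in 1B and -0.45 in 1A, and Pstpip1, an adaptor that binds pyrin, of 0.53 in 1B and -0.78 in 1A. The interaction of each of these 10 was called in every one of the 19 other settings. Their separate responses in 1B and in 1A were not examined gene by gene under those settings.

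**Figure D4:**
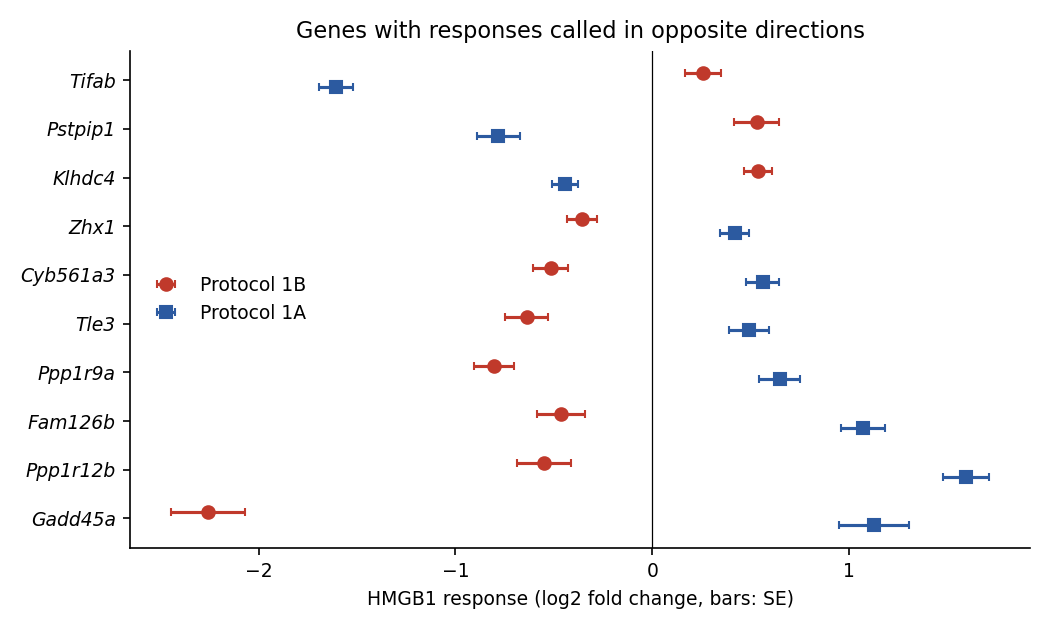
HMGB1 response (log2 fold change, bars are SE, 3 libraries per group) of the 10 named genes whose responses were called in opposite directions, Protocol 1B above Protocol 1A in each row. Tifab, Pstpip1 and Klhdc4 rose in 1B and fell in 1A, and the other 7 fell in 1B and rose in 1A.

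Some called genes had fewer than 10 counts in a whole group and are given as levels only. Olr1, the scavenger receptor LOX-1, had 12.1, 9.56 and 9.66 CPM in 1B HMGB1 and 1 count over the 3 libraries of 1B Control, against 38.4, 32.3 and 35.7 CPM in 1A HMGB1 and 5.14, 4.79 and 2.66 CPM in 1A Control. Pilrb1, beside Pilrb2, had 8.1, 8.01 and 8.83 CPM in 1B HMGB1 and 1 count in 1B Control, against 41.3, 47.3 and 46.1 CPM in 1A HMGB1 and 6.03, 6.29 and 9.45 CPM in 1A Control. Adora2a, the adenosine receptor that dampens inflammation, had 60.1, 44.5 and 48.3 CPM in 1B HMGB1 and 3 counts in 1B Control, against 140.4, 119 and 127 CPM in 1A HMGB1 and 1.6, 2.28 and 1.38 CPM in 1A Control. In all 3, every 1B library was below every 1A library of the same treatment.

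The GM-CSF receptor genes themselves were lower in cells grown without GM-CSF, with and without HMGB1. Csf2rb, the shared beta chain, had 407, 316 and 363 CPM in 1B HMGB1 and 151, 143 and 141 CPM in 1B Control. Protocol 1A gave 812, 775 and 773 CPM in 1A HMGB1 and 378, 422 and 417 CPM in 1A Control. The Csf2rb interaction, 0.37 (SE 0.11, adjusted p = 0.0466), was at the threshold, and its call was lost in 11 of the 19 other settings. Csf2ra averaged 272 ± 1.56 CPM in 1B HMGB1, 196 ± 14.8 in 1B Control, 507 ± 17.3 in 1A HMGB1 and 421 ± 9.83 in 1A Control, with an interaction of 0.21 (SE 0.09, adjusted p = 0.155). Csf2rb2, which encodes a mouse-specific beta chain of the IL-3 receptor, had an interaction of 0.02 (SE 0.09, adjusted p = 0.928). Csf2rb and Csf2rb2 are near-identical neighbours, among which reads may be divided. Of the 20 genes of the receptor and STAT5 pathway, 16 rose in each protocol, and the interaction was higher in 1B for 5 and lower for 0.

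Members of this list with a call included Pim1, a survival kinase. It averaged 659.6 ± 85.7 CPM in 1B HMGB1, 33.8 ± 0.803 in 1B Control, 499 ± 10.9 in 1A HMGB1 and 47.7 ± 8.65 in 1A Control (interaction 0.9, SE 0.16, adjusted p = 0.00246). Mcl1, a BCL2-family survival factor, had an interaction of 0.47 (adjusted p = 0.00405). Socs3, which shuts off cytokine receptors, averaged 468 ± 52.8 CPM in 1B HMGB1, 2.37 ± 0.598 in 1B Control, 436 ± 12.8 in 1A HMGB1 and 5.76 ± 1.87 in 1A Control (interaction 1.39, SE 0.29, adjusted p = 0.0132). The phosphatase gene Ptpn6 had an interaction of 0.48 (adjusted p = 0.0138), a call lost in the fit of all 30 libraries (adjusted p = 0.061). Cish, Socs1, Socs2 and Pim2 of the same list were not called (interactions 0.44, 0.63, 0.11 and -0.26, adjusted p 0.809, 0.633, 0.947 and 0.764). Of 21 genes known to be raised by GM-CSF in myeloid cells, 15 were lower and 2 higher in 1B Control, and the interaction was higher in 1B for 3 and lower for 1. The count of 3 became 1 without 1A HMGB1 replicate 2 or 3 and in the fit of all 30 libraries. It became 5 without the filter on low counts and 6 with the replicate number as a block within protocol. The lower one was Cd1d1, which presents lipid antigens, with 3.44, 3.55 and 3.52 CPM in 1B HMGB1 and 4.5, 4.84 and 4.1 CPM in 1B Control. This compared with 35.2, 34.8 and 44.8 CPM in 1A HMGB1 and 8.8, 12.7 and 18.7 CPM in 1A Control (interaction -1.88, SE 0.33, adjusted p = 0.00283). Within the JAK-STAT list, 3 of 20 had a higher and 2 a lower response in 1B, these being Socs6 (interaction -1.29, SE 0.16, adjusted p = 0.000121) and Socs5 (interaction -0.59).

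Of 27 receptors and adaptors through which HMGB1 is sensed, the interaction was higher in 1B for 7 and lower for 6, and Control levels were lower in 1B for 14 and higher for 3. With 1 library left out, 6 to 8 were called higher and 2 to 5 lower, with 2 lower without any 1 of the 1B Control libraries and 3 without 1A Control replicate 1 or 2. Tlr2 had 736, 677 and 676 CPM in 1B HMGB1 and 51.2, 50.1 and 40.8 CPM in 1B Control. Protocol 1A gave 941, 939.6 and 968 CPM in 1A HMGB1 and 167, 172 and 172 CPM in 1A Control (interaction 1.4, SE 0.10, adjusted p = 3.71e-07). Every 1B library was below its 1A counterparts, although the response was larger. Tlr4, a receptor for HMGB1 in macrophages, rose in 1B (0.53) and was not called in 1A (0.02), with Control levels of 75.7, 83.5 and 69.1 CPM in 1B and 83.7, 89.5 and 88.1 CPM in 1A (interaction 0.51, SE 0.12, adjusted p = 0.00936). In the fit of all 30 libraries Tlr4 lost the call of its interaction (adjusted p = 0.372). Its co-receptor Cd14 averaged 2036 ± 177 CPM in 1B HMGB1, 248 ± 44 in 1B Control, 1844 ± 72 in 1A HMGB1 and 382 ± 54.6 in 1A Control (interaction 0.77, SE 0.18, adjusted p = 0.018), and its call was lost in 5 of the 12 fits with a library left out.

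Ikbke, a kinase of the interferon branch, averaged 468 ± 13 CPM in 1B HMGB1, 52.7 ± 3.04 in 1B Control, 402 ± 44.8 in 1A HMGB1 and 103 ± 6.92 in 1A Control (interaction 1.18, SE 0.11, adjusted p = 4.24e-06), and Irak2, a kinase that sustains signalling downstream of MYD88, had an interaction of 0.67 (adjusted p = 0.00064). Irak3, its inhibitory relative, was not called (0.2, adjusted p = 0.333). Cxcr4, which binds a CXCL12 and HMGB1 complex, fell further in 1B and averaged 3.34 ± 0.378 CPM in 1B HMGB1, 67.7 ± 7.64 in 1B Control, 6.39 ± 0.594 in 1A HMGB1 and 55.8 ± 3.42 in 1A Control (interaction -1.21, SE 0.16, adjusted p = 0.000152). Ager, which encodes RAGE, did not average above 1.31 CPM in any group, and the Hmgb1 transcript itself fell slightly more in 1B (interaction -0.34, adjusted p = 0.0328), a call lost in 7 of the 19 other settings. Tlr4, Cd14, Ager and Hmgb1 fall outside the rule for named genes and were added with their values known.

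Genes of antigen presentation by MHC class I all rose in both protocols, 16 of 16, with an interaction higher in 1B for 7 and lower for 0 (median 0.98). All 16 were lower in 1B Control. Tap2, a peptide transporter, averaged 214 ± 4.64 CPM in 1B HMGB1, 27.2 ± 3.1 in 1B Control, 149.9 ± 5.17 in 1A HMGB1 and 37.4 ± 7.0 in 1A Control (interaction 0.97, SE 0.15, adjusted p = 0.000897), and the proteasome activator Psme2 had an interaction of 0.95 (adjusted p = 0.00392). The light chain B2m was not called (0.45, adjusted p = 0.209). This count varied from 2 to 13 with 1 library left out.

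For MHC class II and costimulation the interaction was higher in 1B for 4 of 17 and lower for 0. Cd274, which encodes PD-L1, had 928, 1154 and 1022 CPM in 1B HMGB1 and 30.1, 32.1 and 26 CPM in 1B Control. This compared with 859.9, 916 and 940.0 CPM in 1A HMGB1 and 69.8, 76.5 and 111 CPM in 1A Control (interaction 1.74, SE 0.22, adjusted p = 0.000756). Icosl, the ligand of ICOS, averaged 85.2 ± 2.25 CPM in 1B HMGB1, 4.28 ± 0.491 in 1B Control, 72.8 ± 4.99 in 1A HMGB1 and 8.83 ± 1.21 in 1A Control (interaction 1.28, SE 0.14, adjusted p = 2.68e-05), and Cd86 had an interaction of 0.83 (adjusted p = 0.0154). H2-DMa, which loads peptide on class II molecules, fell in 1A (-0.73) and was not called in 1B (0.38), at 5.5, 4.52 and 4.39 CPM in 1B HMGB1 and 4.65, 3.1 and 3.25 CPM in 1B Control. Protocol 1A gave 11.5, 11.2 and 10.5 CPM in 1A HMGB1 and 18.3, 17.8 and 19.1 CPM in 1A Control.

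Of 31 genes of resting microglia tested, 16 were higher and 4 lower in 1B Control, and the interaction was higher in 1B for 1 and lower for 3. Over all genes tested, 5.34% had a higher and 4.28% a lower response in 1B, and 18% were higher and 17.2% lower in 1B Control. The phagocytic receptor Mertk rose further in 1B (interaction 0.55, adjusted p = 0.00863), a call lost in the fit of all 30 libraries (adjusted p = 0.198). Tgfbr2, a receptor for TGF-beta, fell further in 1B (interaction -0.68, SE 0.12, adjusted p = 0.00185). P2ry12, the ADP receptor that guides process movement, fell in 1B (-1.05) and was not called in 1A (-0.05). Its interaction of -1.0 (adjusted p = 0.0393) lost its call in 7 of 12 fits with a library left out and in the fit of all 30 libraries. Among 30 genes of disease-associated microglia, 4 had a higher response in 1B (2 without 1B Control replicate 1) and 1 a lower one. Axl, the interferon-inducible relative of Mertk, averaged 269.6 ± 14.2 CPM in 1B HMGB1, 77.2 ± 1.95 in 1B Control, 1039 ± 99.5 in 1A HMGB1 and 657 ± 176 in 1A Control (interaction 1.14, SE 0.21, adjusted p = 0.00689). Cybb, the catalytic subunit of the phagocyte oxidase, had an interaction of 1.04 (adjusted p = 0.00281). The lower one, Hif1a, the hypoxia-inducible factor, had 151, 143 and 151 CPM in 1B HMGB1 and 100.1, 99.7 and 90.2 CPM in 1B Control. This compared with 304, 288 and 317 CPM in 1A HMGB1 and 119, 128 and 111 CPM in 1A Control (interaction -0.73, SE 0.09, adjusted p = 8.69e-05).

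The stress lists were divided. Of 23 genes of the integrated stress and NRF2 responses, 3 had a higher response in 1B and 5 a lower one (3 lower without 1A HMGB1 replicate 1). Atf4, the factor that drives the integrated stress response, rose in 1A (0.6) and was not called in 1B (-0.11), with an interaction of -0.71 (adjusted p = 0.000943). Its target Trib3 had 1.76, 1.81 and 2.13 CPM in 1B HMGB1 and 9.63, 10.5 and 8.15 CPM in 1B Control. Protocol 1A gave 1.61, 2.96 and 2.42 CPM in 1A HMGB1 and 3.31, 2.33 and 3.89 CPM in 1A Control (interaction -1.86, SE 0.35, adjusted p = 0.00231), so that the difference lay in the Control cells. On the NRF2 side, the autophagy receptor Sqstm1 averaged 4434 ± 204 CPM in 1B HMGB1, 695 ± 71.9 in 1B Control, 2349 ± 315 in 1A HMGB1 and 605 ± 26.9 in 1A Control (interaction 0.72, SE 0.13, adjusted p = 0.00164), and the cystine transporter Slc7a11 had an interaction of 1.47 (adjusted p = 0.00987) with lower levels in 1B. The Slc7a11 interaction lost its call in the fit of all 30 libraries (adjusted p = 0.108).

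Of 14 tested genes in the list of cholesterol efflux and LXR targets, the interaction was higher in 1B for 1 and lower for 1 (median -0.11). The shares over all genes tested were 5.34% and 4.28%. These 2 genes were Abcg1 and Abca1, which both export cholesterol. Abca1 had 226, 141 and 164 CPM in 1B HMGB1 and 140.4, 133 and 119.9 CPM in 1B Control. This compared with 80.8, 75.3 and 90.1 CPM in 1A HMGB1 and 30.8, 30.5 and 31.2 CPM in 1A Control (interaction -0.98, SE 0.20, adjusted p = 0.0114). Abcg1 had 48.1, 47.2 and 43.6 CPM in 1B HMGB1 and 40.6, 42.1 and 37.2 CPM in 1B Control. Protocol 1A gave 45.9, 44.3 and 49.8 CPM in 1A HMGB1 and 72.2, 66.9 and 94.5 CPM in 1A Control (interaction 0.95, SE 0.15, adjusted p = 0.00084). HMGB1 thus raised Abca1 by more in 1A, and lowered Abcg1 in 1A without a call in 1B. The Abcg1 interaction lost its call in the fit of all 30 libraries (adjusted p = 0.091). Of 24 genes of sterol synthesis and uptake, 22 were lower and 0 higher in 1B Control, and the interaction was higher in 1B for 1 and lower for 2, Dhcr7 (-0.52) and Pmvk (-0.54). None of the list was called in the fit of all 30 libraries, and Pmvk lost its call in 12 of the 19 other settings.

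Other lists held few calls, where 5.34% of all genes tested had a higher and 4.28% a lower response in 1B. Of 44 genes of oxidative phosphorylation, the interaction was called for 0 by edgeR (median -0.02), with 3 at an unadjusted p under 0.05 and 0 called by DESeq2. In this list 20 rose and 4 fell in 1B, and 21 rose and 1 fell in 1A. Of 34 lysosomal genes, 1 had a higher and 1 a lower response in 1B. Of 45 DNA replication genes, 38 fell in 1B and 35 in 1A, and of 48 mitosis genes, 37 fell in 1B and 28 in 1A. Their median interactions were -0.28 and -0.30, yet the calls were few, 0 higher and 3 lower for replication, with Mcm3, a helicase subunit, at -0.47 (adjusted p = 0.0142), and 1 higher and 2 lower for mitosis, with the checkpoint gene Mad2l1 at -0.71 (adjusted p = 0.00371). With 1 library left out, the 2 lower calls in mitosis varied from 1 to 5, with 5 without 1B HMGB1 replicate 3 and 4 without 1A HMGB1 replicate 3.

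In glycolysis and hypoxia 4 of 24 had a higher and 1 a lower response in 1B. The higher count was 2 without 1B HMGB1 replicate 2, 1A HMGB1 replicate 1 or 1A HMGB1 replicate 3, 2 with all 30 libraries or without the filter, and 7 by DESeq2. Among the 4 were the first enzyme of glycolysis, Hk1 (interaction 0.59, SE 0.09, adjusted p = 0.000361), and the lactate exporter Slc16a3 (interaction 0.65, adjusted p = 0.00924). Of the prostaglandin, nitric oxide and itaconate genes, 5 of 19 had a higher response in 1B and 0 a lower one (3 to 6 higher with 1 library left out, 3 without 1B HMGB1 replicate 2 or 3, 1B Control replicate 1 or 3, or any 1A HMGB1 library), with Pla2g4a, the phospholipase that releases arachidonic acid, at 0.53 (adjusted p = 0.00257). Acod1, which makes itaconate and averaged 9001 CPM in 1B HMGB1 and 7682 CPM in 1A HMGB1, was not called (2.75, SE 0.75, adjusted p = 0.0574), but was called in 4 of the 19 other settings. Of 23 complement and Fc receptor genes, 4 had a higher response in 1B and 0 a lower one, including C3, already described, and the C5a receptor gene C5ar1 (0.58, adjusted p = 0.00163).

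**Figure D5:**
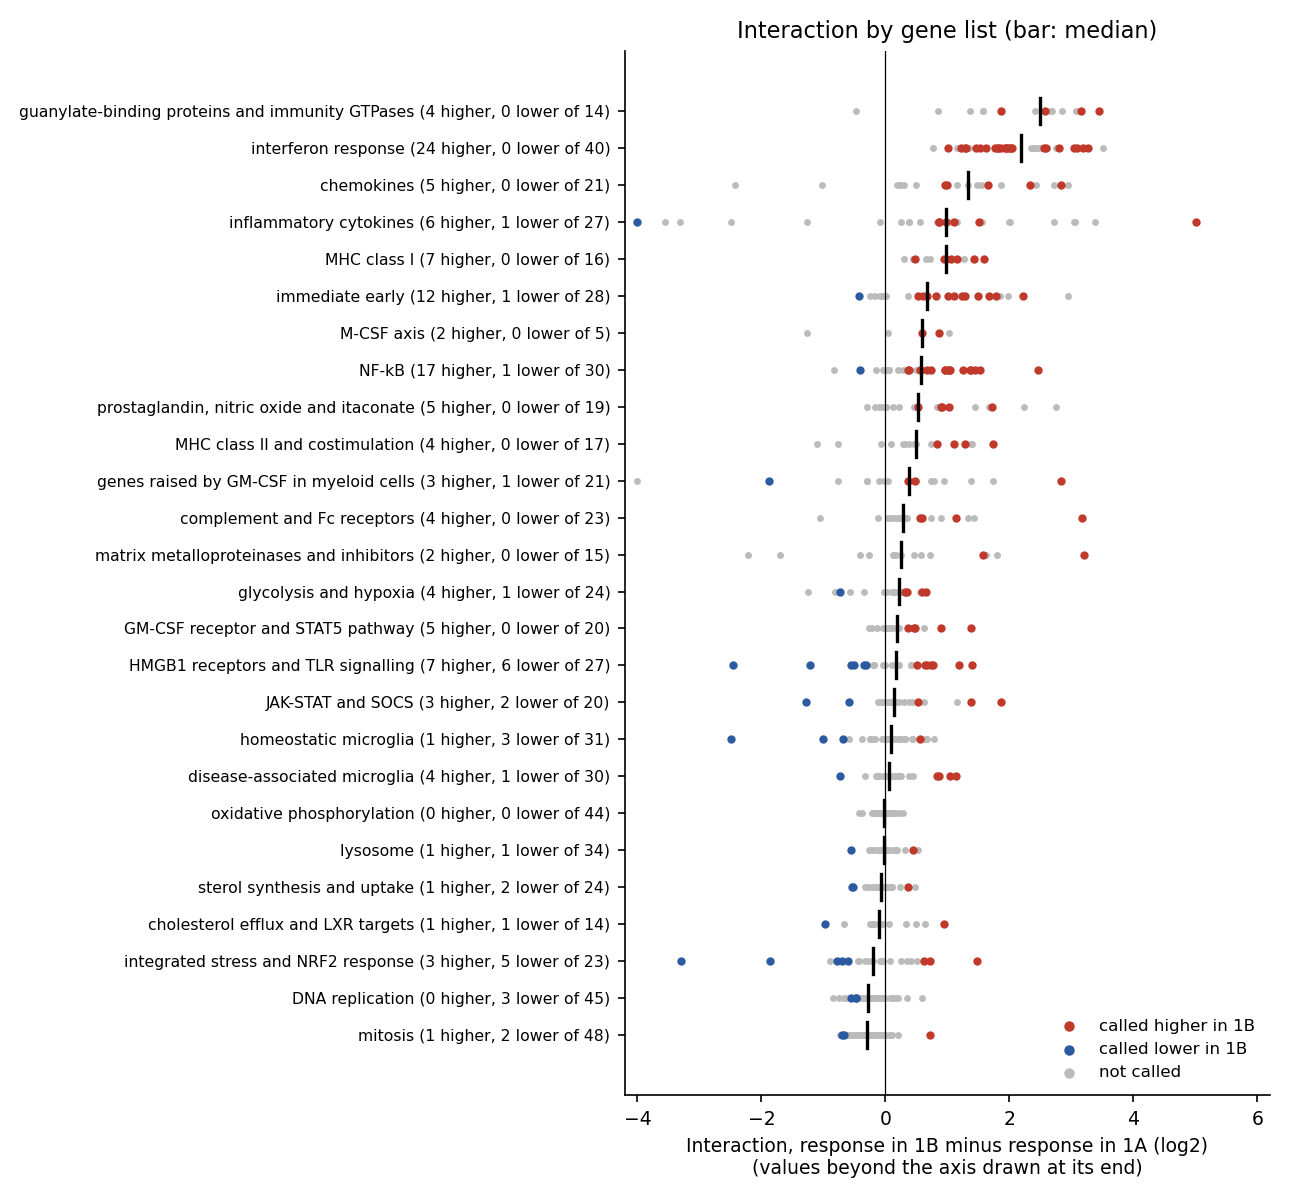
Interaction (response in 1B minus response in 1A, log2) of each tested gene of the 26 lists, in order of the list median, which is drawn as a bar; values beyond the axis are drawn at its end. Red and blue points are genes called higher and lower in 1B, with their number beside the list name. The interferon and guanylate-binding lists lie furthest to the right, with medians of 2.19 and 2.50, and the lists of mitosis and DNA replication furthest to the left, with medians of -0.30 and -0.28.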

How the data were processed

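RNA was measured in 12 bulk libraries, 3 each of 1B HMGB1, 1B Control, 1A HMGB1 and 1A Control, grouped by their labels. The authors aligned the reads with HISAT2 (version 2.0.5) and deposited raw read counts per gene from featureCounts (version 1.5.0-p3) for 54532 genes in a table of 30 libraries. The genome build and the strand setting are not given in the sources used here, so reads of overlapping or antisense genes may be mixed. The gene coordinates printed are those of the deposited table.

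Counts were filtered with filterByExpr, scaled by TMM and fitted with the robust quasi-likelihood model of edgeR (version 4.0.16, R 4.3.3) with a mean for each of the 4 groups. The interaction, the 2 HMGB1 responses and the 2 level differences were tested as contrasts. P-values were adjusted by Benjamini-Hochberg over 14634 genes, and a gene was called at an adjusted p below 0.05. CPM are TMM-scaled counts, errors are SDs over 3 libraries, and the SE of a log2 fold change was derived from the F statistic. Depth was 15403182 to 26863639 counts. P-values measure the spread between libraries of the same group, which the methods describe as separate litters of pooled pups.

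Named genes were Tnf, Il1b and Ifnb1; the 10 largest interactions in each direction among called protein-coding genes with at least 10 CPM in 1 group, at least 10 counts in every group and responses that did not overlap; of each list up to 4 called members, by adjusted p, and up to 2 abundant ones not called; 10 genes with opposite responses; 6 with fewer than 10 counts in a group; and the GM-CSF receptor genes. Not all of these are described, and some items are not reported here. The comparison, the genes and the lists were chosen with earlier results of these data known. Alternatives were DESeq2 (version 1.42.0), its size factors, no filter on low counts, all 30 libraries in 1 fit, mitochondrial and rRNA genes left out, a minimum fold, the replicate number as a block, and each library left out in turn. The test was checked on simulated data. Within both protocols, libraries correlated most with those of the same replicate number, in 1B at r of deviations 0.15, 0.28 and 0.35. In 1A this was weak (0.036, 0.078 and 0.076, against at most 0.025, 0.039 and -0.0014 for other numbers). No litter labels are given, and the main fit of the interaction used no block. Promoters were taken from RefSeq (GRCm38.p6), 250 bases before to 50 after the start.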

Additional observations from a re-analysis of the deposited data

Results flagged for a closer look

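The HMGB1 response differed between the protocols by the interaction test of edgeR for 781 genes that were higher in 1B and 627 that were lower in 1B. Of these, 18 genes rose in 1B and fell in 1A, and 41 fell in 1B and rose in 1A. The 10 named genes with opposite responses had interactions of -3.38 (Gadd45a), -2.14 (Ppp1r12b), -1.53 (Fam126b), -1.45 (Ppp1r9a), -1.13 (Tle3), -1.08 (Cyb561a3) and -0.77 (Zhx1), and of 1.86 (Tifab), 1.31 (Pstpip1) and 0.98 (Klhdc4), on the log2 scale.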

How the results depend on the processing

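No called gene named in the report changed the direction of its interaction under any of the 19 settings run for single genes. Of the 95 such genes, 75 kept the call of the interaction in all of them. The others lost it most often with all 30 libraries in 1 fit (9 genes) or with a library left out (4 to 10). The interaction was called for 998 genes higher and 746 lower in 1B by DESeq2, and for 851 and 861 without the filter on low counts. With a log2 fold change of at least 1, the interaction gave 275 higher and 135 lower, the 1B response 1847 and 2019, the 1A response 1579 and 1841, the HMGB1 levels 860 and 657, and the Control levels 886 and 953. With 1 library left out, the interaction gave 504 to 844 higher and 441 to 817 lower, the 1B response 3816 to 4259 and 4230 to 4732, the 1A response 3772 to 4167 and 3903 to 4400, the HMGB1 levels 1820 to 2444 and 1772 to 2200, and the Control levels 2090 to 2877 and 2130 to 2488. The Pearson r between the responses was 0.467 without the filter, 0.536 with DESeq2 fold changes and 0.769 to 0.815 with a library left out, where it was 0.832 over all genes tested; the SD ratio was 1.06 in the first and in the second, and 1.06 to 1.16 with a library left out, against 1.13.

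The replicate number as a block within protocol gave 971 genes higher and 782 lower for the interaction, and as a block across groups 902 and 724; 14 and 16 of the 40 interferon genes were then called. Under the block within protocol Il1a and B2m gained a call, and Gbp2, Gbp3, Igtp, Irf7, Parp14, Pmvk and Socs3 lost theirs; under the block across groups Il1a gained one, and Igtp, Irf7 and Pmvk lost theirs. The numbers paired the 1A libraries only weakly. In 1B, where the pairing was clearer, the response with the block gave 4323 genes that rose and 4673 that fell.

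Signs changed for genes that were not called. Ifnb1 was at -0.27 without 1A Control replicate 3 and at up to 3.29 with another library left out. Csf2rb2 was at -0.0042 without the filter, -0.0021 with all 30 libraries, and -0.036 to 0.058 with a library left out. The causes of these shifts were not tested. Litters of 3 per group and the low 1B Control counts of several induced genes limit the precision of the largest folds.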

Other observations

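Protocol 1C, grown for 21 days with GM-CSF, was outside the comparison. In a fit over all 30 libraries its HMGB1 response was 7.23 for Tnf, 9.94 for Il1b, 4.24 for Icam1, 4.75 for Gbp2, 4.0 for Fpr2, 2.69 for P2ry13 and 2.08 for Lrrk2, on the log2 scale. Ifnb1 averaged 12.1 CPM in 1C HMGB1 and 0.049 CPM in 1C Control. Gadd45a fell by 1.19 in 1C, whereas it rose in 1A. Ier2, with a response not called in 1A, rose by 1.45 in 1C. Dgat2 rose by 1.04, to an average of 3.64 CPM in 1C HMGB1. Ereg averaged 2.61 CPM in 1C HMGB1, against 41.2 CPM in 1A HMGB1, each scaled within its own fit. Fpr1 and Irf7 rose by 4.03 and 3.13 in 1C.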
